A study of Mus musculus with 39 samples.

Results

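Immediate early genes were followed in *Stat3* null and WT mouse epiblasts and in epiblast stem cell (EpiSC) lines. The set held 10 genes of the 47643 listed in each count table, *Fos*, *Fosb*, *Jun*, *Junb*, *Jund*, *Egr1*, *Egr2*, *Ier2*, *Ier3* and *Atf3*, taken by gene symbol. Each epiblast library came from a single epiblast of a *Stat3* heterozygous intercross on the CD1 background, in which the null allele carries a neomycin resistance cassette in place of several exons. At embryonic day (E) 5.5 there were 2 WT and 4 *Stat3* null epiblasts. The later stages had 9 WT and 8 null epiblasts (E6.5), then 9 WT and 3 null epiblasts (E7.5). Extraembryonic tissue had been stripped off by hand with a drawn glass pipette, and the embryos were typed from it. The EpiSC libraries came from 2 *Stat3* null lines (2 and 6) and 2 WT lines (8 and 13), each line sampled once and grown on fibronectin in N2B27 medium with Activin A, FGF2 and the tankyrase inhibitor XAV-939. Epiblasts and EpiSCs were prepared with different RNA and library kits and counted in separate tables.

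Immediate early genes are switched on within minutes of a growth factor, stress or calcium signal and need no new protein synthesis for it. Serum response factor with its ternary complex factors, which ERK phosphorylates, and CREB family factors are the best known inputs, and *Junb* is also a textbook target of STAT3 downstream of LIF and IL6 receptors. FOS and JUN family proteins pair to form the AP-1 transcription factor, EGR proteins are zinc finger factors, and FGF signalling through ERK is active in the postimplantation epiblast. Dissecting and dissociating tissue can also raise these transcripts.

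Promoter stretches are shown for *Fos*, *Fosb* and *Junb*, taken from the 5 members with a TGACG match in their window, and for *Egr2*, the only member with a match to the CArG box, the site type bound by serum response factor. RefSeq windows of 300 bases on GRCm38.p6 were found for 8 of the 10 members, not for *Egr1* and *Ier2*. Each stretch ends just before or a few bases before the RefSeq start and overlaps no exon in GENCODE: chr12:85473770-85473889, plus strand, for *Fos*; chr7:19310052-19310165, minus strand, for *Fosb*; chr8:84978749-84978868, minus strand, for *Junb*; and chr10:67537749-67537868, plus strand, for *Egr2*, which has 5 RefSeq windows. Capitals mark TGACG on either strand (CGTCA when it lies on the other strand), TATAAA in *Fos*, and the CArG box in *Egr2*.
Fos: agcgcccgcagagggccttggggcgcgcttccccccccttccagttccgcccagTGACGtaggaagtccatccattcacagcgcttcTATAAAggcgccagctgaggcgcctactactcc
Fosb: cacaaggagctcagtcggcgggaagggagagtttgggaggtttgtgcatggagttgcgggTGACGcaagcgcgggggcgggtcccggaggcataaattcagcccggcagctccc
Junb: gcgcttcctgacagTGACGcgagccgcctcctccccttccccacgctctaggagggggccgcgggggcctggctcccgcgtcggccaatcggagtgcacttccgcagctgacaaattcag
Egr2: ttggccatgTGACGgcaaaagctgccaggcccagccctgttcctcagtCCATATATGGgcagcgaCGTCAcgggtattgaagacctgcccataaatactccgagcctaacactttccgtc

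The letters TGACG, the core of a CREB/ATF site, stood in the windows of 5 of these 8 members (*Fos*, *Fosb*, *Junb*, *Egr2* and *Atf3*), against 20.8% of all 32851 windows. In the printed stretches the match began at -66 in *Fos*, -60 in *Fosb* and -106 in *Junb*, counted back from -1 at the base before the start. A CArG box was in 1.63% of all windows and TATAAA, found in *Fos* and *Junb*, in 13.6%. The full site TGACGTCA (1.79% of windows), the AP-1 letters TGANTCA (7.81%) and TTCNNNGAA, the spacing of a STAT site (8.3%), had no match in the 8 members. These are letter matches in short windows, searched on both strands, and say nothing of sites farther out.

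Epiblast libraries held 22941210 to 79013960 counts and the EpiSC libraries 63445877 to 127583699, so that 3 counts, the most a count of 0 allows, correspond to between 0.0233 and 0.13 CPM, the count scaled to a common library size. *Stat3* itself was at 9.47 to 22.6 CPM in the E5.5 null epiblasts against 38.6 and 51.1 in WT, and at 1.24 to 1.503 against 4.70 to 24.7 at E7.5. At E6.5 the groups overlapped, with 1.42 to 7.99 CPM in null and 5.62 to 28.6 in WT. The exons outside the cassette can still give reads. In the EpiSC lines *Stat3* was at 3.15 and 3.50 CPM in null and at 18.3 and 22.8 in WT. Beside these, 4 libraries stood apart by their markers, E5.5 null 1, E6.5 null 1, E6.5 WT 3 and E7.5 WT 3. E5.5 null 1 had 0.673 CPM of the epiblast marker *Pou5f1* where the other E5.5 epiblasts had 100.3 to 287.8, and its 10 extraembryonic ectoderm markers summed to 1844 CPM, against 378 and 802 in the E5.5 WT epiblasts. The same sum was 1189 in E6.5 null 1, the visceral endoderm markers summed to 5285 in E6.5 WT 3, and the epiblast markers to 6279 in E7.5 WT 3, the highest of its group. They were kept under their labels. They do not hold every high marker sum, since E6.5 null 3 exceeded E6.5 WT 3 for visceral endoderm, at 6101 CPM, and had the highest blood and maternal sum of all epiblasts, 129.2 CPM.

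Levels per length, in CPM per kilobase of the union of each gene's exons, separated the 10 members widely. In WT E6.5 epiblasts the median was 43.5 for *Jund* and 32.7 for *Ier2*, which overlapped in range, and 5.70 for *Jun*, which overlapped with neither. *Jund* codes for the JUN protein that many resting cells already hold, and *Ier2* for a small nuclear protein. Next came *Junb* at 1.88, *Egr1* at 1.79 and *Ier3*, which codes for a stress-responsive survival protein, at 1.05. *Fos* at 0.340, *Fosb* at 0.294, *Egr2* at 0.122 and *Atf3* at 0.0926 CPM per kilobase were lowest, and from *Jun* downwards every neighbour in this order overlapped with the next. *Jund* and *Ier2* held ranks 1 and 2 in all 6 epiblast groups.

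**Figure D1:**
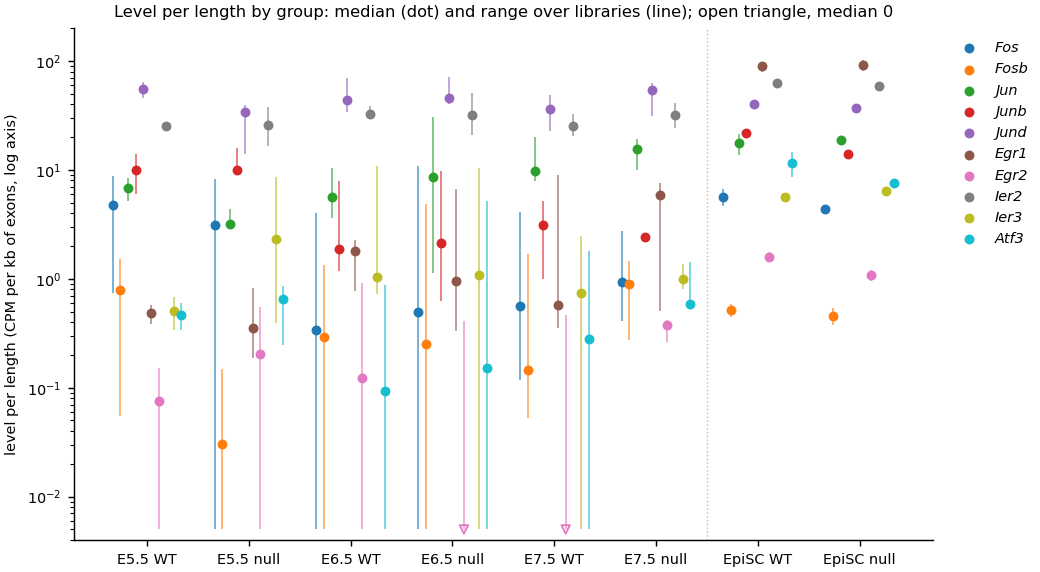
Level of each immediate early gene per kilobase of exons (log axis) in the 8 groups, with dots for the median and lines from the lowest to the highest library; lines that reach the lower edge include a library with 0 counts. *Jund* and *Ier2* led in every epiblast group, while *Egr1* led in both EpiSC groups, with medians of 89.2 in WT and 91.8 in null.

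*Fos*, the founding AP-1 subunit, was low in most epiblasts and high in a few. The E5.5 null epiblasts had 19.4, 5.69, 0 and 8.89 CPM and the 2 WT epiblasts 20.6 and 1.76. At E6.5 it ran from 0 through a median of 1.16 to 25.6 in null and from 0 through 0.800 to 9.37 in WT. At E6.5 the highest value of each genotype was many times its median, and at both stages the genotypes overlapped. At E7.5 the null epiblasts had 6.44, 2.18 and 0.971 CPM, inside the WT range of 0.276 to 9.76 around a median of 1.32.

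*Fosb*, which codes for a FOS relative, behaved likewise. At E5.5 it was at 0.925, 0.174, 0 and 0.209 CPM in null and at 9.57 and 0.345 in WT. At E6.5 null 3 and null 4 stood at 30.1 and 27.4 CPM while the other 6 null epiblasts lay between 0 and 1.71. WT epiblasts of that stage ranged from 0 to 8.30 around a median of 1.84. The null mean of 8.16 ± 12.75 CPM (SD, n = 8) rested on those 2 epiblasts, whose visceral endoderm markers summed to 6101 and 4291 CPM, the highest of their group. Null 8 followed with 3948 CPM and was not high for *Fosb* or *Jun*. In such bulk libraries fewer cells of a type and less RNA per cell cannot be told apart. At E7.5 *Fosb* was at 9.20, 5.60 and 1.70 CPM in null and ran from 0.326 through 0.906 to 10.6 in WT.

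*Jun*, which codes for the founding JUN subunit of AP-1, was measured well above the counting limit in every library. Both E5.5 WT epiblasts, at 27.0 and 16.5 CPM, lay above the null values of 9.78, 10.4, 14.01 and 9.72. At E6.5 the null epiblasts spread from 3.61 to 96.9 CPM around a median of 27.6, whereas the 9 WT epiblasts stayed within 11.6 to 33.2 around 18.2. The same 2 null epiblasts that were high for *Fosb* were high for *Jun*, with 96.9 CPM in null 3 and 86.4 in null 4, and null 1 and null 2 lay below every WT epiblast. Null 3 and null 2, the highest and lowest for *Jun*, had the fewest genes detected of all epiblasts, 15171 and 15531. Null 4 had 21031, and every other epiblast had at least 17961. At E7.5 *Jun* was at 61.1, 49.5 and 31.9 CPM in null and at 25.4 to 63.9, median 31.1, in WT.

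*Junb*, which codes for a JUN protein that often opposes JUN, was highest at E5.5. The null epiblasts of that stage had 36.9, 20.9, 21.7 and 24.6 CPM and the WT epiblasts 32.0 and 13.7. At E6.5 the ranges were 1.45 to 22.4, median 4.92, in null and 2.71 to 18.4, median 4.32, in WT. Every E5.5 epiblast was above the median of both E6.5 groups, and the E6.5 values above 10 CPM were those of null 1, null 4 and WT 3. At E7.5 *Junb* was at 5.54, 5.87 and 5.05 CPM in null and between 2.28 and 11.9 in WT. *Jund* lay between 52.5 and 118.5 CPM in all but 3 of the 35 epiblast libraries, the exceptions being 23.5 in E5.5 null 1 and 37.6 and 47.5 in E7.5 WT 5 and WT 7.

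*Egr1*, an ERK-responsive zinc finger factor, was at 0.841, 1.87, 1.32 and 3.73 CPM in the E5.5 null and at 2.61 and 1.73 in the E5.5 WT epiblasts. At E6.5 it ranged from 1.49 to 30.0 in null, median 4.29, and from 3.44 to 10.1 in WT, median 8.01. At E7.5, 2 of the 3 null epiblasts had 34.1 and 26.5 CPM and the third 2.26. WT epiblasts of that stage had a median of 2.60 with a single value of 40.2, in WT 2. *Egr2*, known for hindbrain and myelin development, was at the limit of detection: 15 of 35 epiblast libraries had 0 counts, and no epiblast exceeded 3.09 CPM.

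*Ier2* was the steadiest member, at 25.5 to 57.5 CPM in the E5.5 null and 35.7 and 41.7 in the E5.5 WT epiblasts. It was at 31.7 to 76.7 CPM in null and 44.7 to 59.4 in WT at E6.5, and at 37.1 to 63.0 and 31.1 to 50.02 at E7.5. *Ier3* lay below 3 CPM in most libraries, and reached 11.8 CPM in E6.5 null 1 and 12.4 in E6.5 WT 1. *Atf3*, a stress-induced ATF/CREB family factor, was at or below 3.84 CPM in all epiblasts except E6.5 null 4, which had 11.1, and 8 of the 35 libraries had 0 counts.

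**Figure D2:**
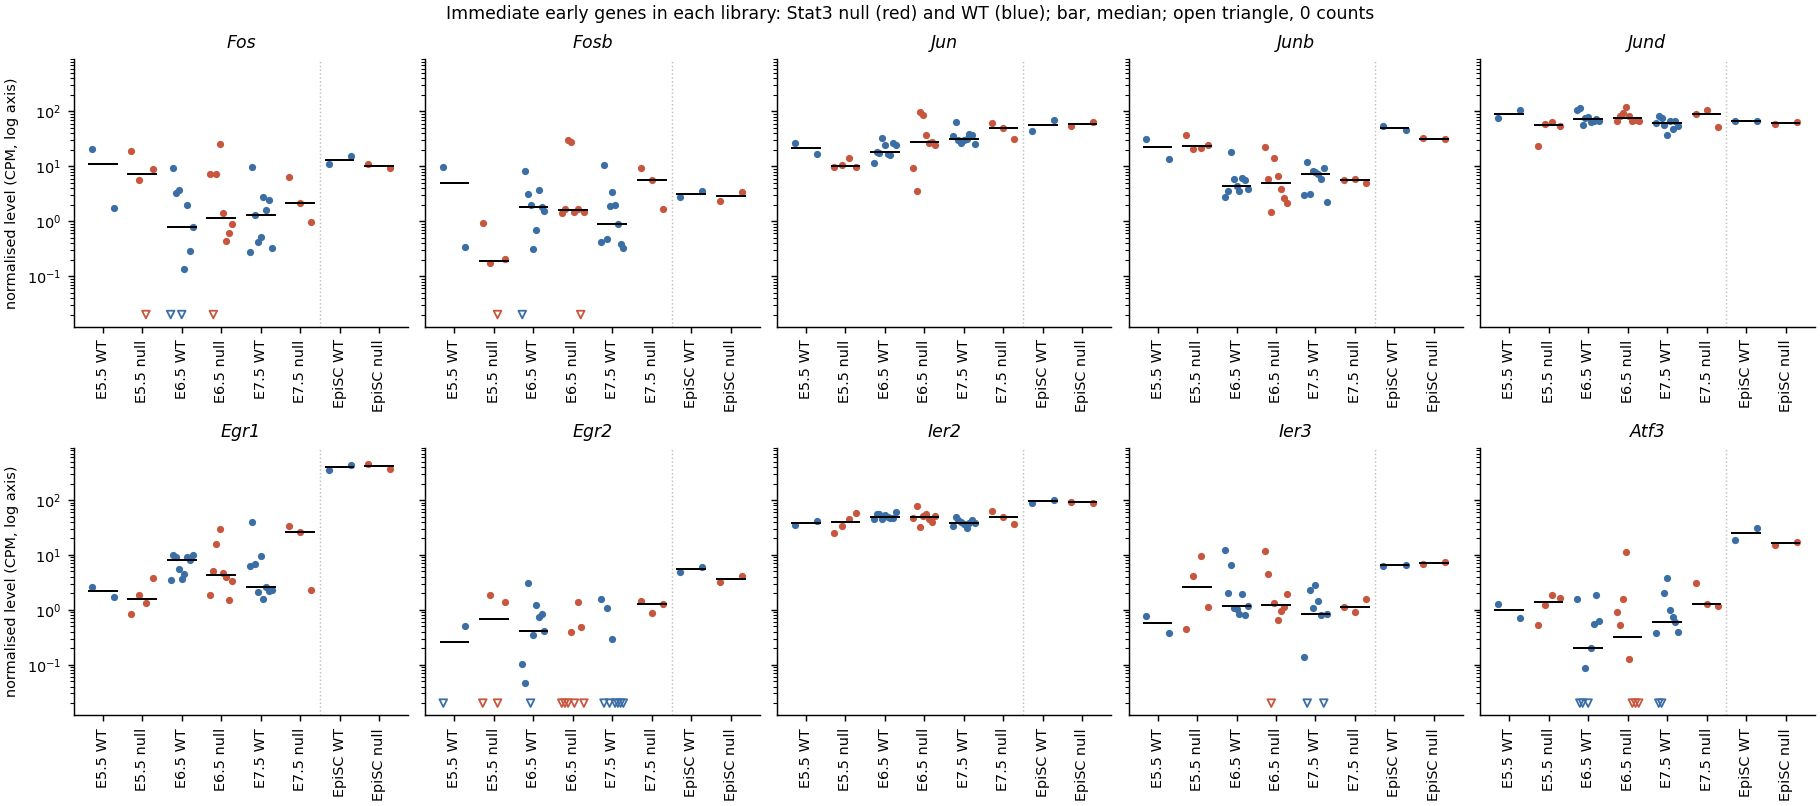
Normalised level (CPM, log axis) of each member in every library, by group, with WT in blue, *Stat3* null in red, bars for medians and open triangles for libraries with 0 counts. *Jund* and *Ier2* are compact, whereas *Fos*, *Fosb*, *Egr1* and *Atf3* spread widely within groups, and E6.5 null 4 is among the 3 highest epiblasts for all 4.

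For some members the high values fell in the same libraries. E6.5 null 4 was among the 5 highest epiblast libraries for 6 members (*Fos*, *Fosb*, *Jun*, *Jund*, *Egr1* and *Atf3*), and so was E7.5 null 1 (*Fosb*, *Jun*, *Egr1*, *Egr2*, *Ier2* and *Atf3*). E7.5 WT 2 was among them for *Fos*, *Fosb*, *Jun* and *Egr1*. No other library was among the 5 highest for more than 3 members, and none of those named was for *Junb* or *Ier3*. These ranks were not centred by stage, and no background from other genes was computed. The biological coefficient of variation within groups was 1.46 for *Fos*, 1.31 for *Fosb*, 0.833 for *Egr1* and 0.51 for *Jun*, or 1.36 to 1.87 times the trend for genes of their abundance. For *Ier2* it was 0.222, 0.705 times the trend, and for *Jund* 0.266, close to the trend.

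As a description over the 35 epiblast libraries, deviations from the group mean on the log2 CPM scale were most alike for *Fos* and *Fosb* (Pearson's r = 0.70) and for *Fosb* and *Egr1* (r = 0.652). *Jun* and *Egr1* had r = 0.485, *Fos* and *Jun* 0.437, and *Fos* and *Junb* 0.411. *Ier3* ran the other way from *Jun*, with r = -0.576. Of the 45 pairs, 8 had r above 0.4, and 8 also did without the 4 libraries that stood apart, with 0.707 for *Fos* and *Fosb* and 0.732 for *Fosb* and *Egr1*. The points share library, depth and dissection, and no p was computed. Among 12070 genes with a mean of at least 50 counts, those whose deviations were most like the mean of the 10 members included *Capza2* (r = 0.606), *Net1*, *Pgap1*, *Commd3*, *Hps3*, *Myo9a*, *Palld* and *Vimp* (r = 0.537). They were picked as the highest of 12070 values. How high an r such a pick gives for unrelated genes was not computed, so a link to the set is not shown.

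**Figure D3:**
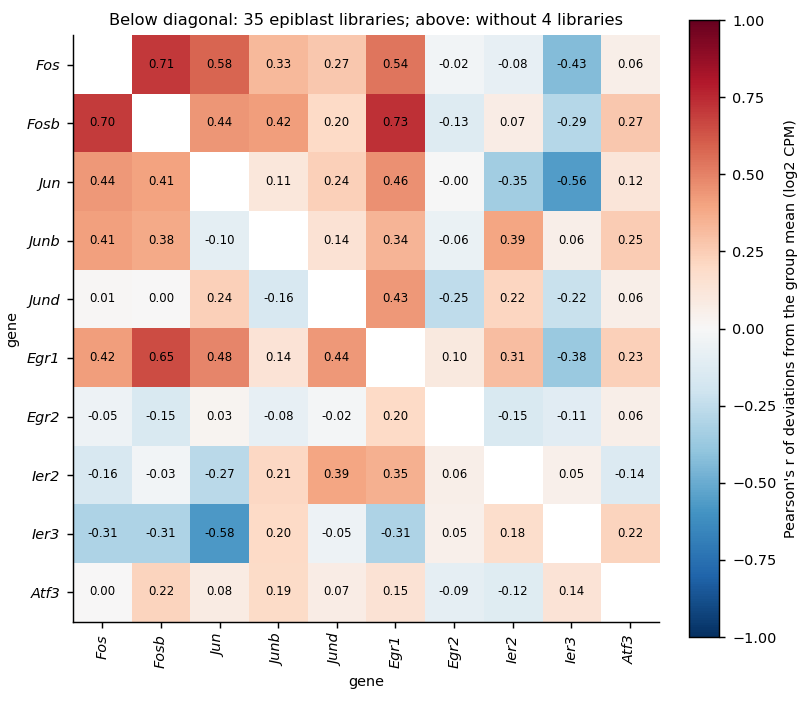
Pearson's r between members, from deviations of log2 CPM from the group mean, with all 35 epiblast libraries below the diagonal and 31 above it. The block of *Fos*, *Fosb*, *Jun* and *Egr1* holds values of 0.40 to 0.70 below the diagonal, and *Ier3* is negative against all 4.

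The mean deviation of the 10 members had r = 0.441 with the summed CPM of 30 other immediate early genes and r = 0.434 with that of 15 AP-1 partners and EGR co-repressors, a list that shares genes with the first. It had r = 0.145 with the log2 total count, -0.00445 with the number of genes detected, 0.0337 with the mitochondrially encoded share, -0.155 with 15 heat shock and handling genes, and between 0.0245 and 0.352 with the marker lists of visceral endoderm, extraembryonic ectoderm, blood and nascent mesoderm. With the epiblast markers r was -0.168, and -0.258 without the 4 libraries. For the heat shock and handling genes r was -0.305 without those libraries. Each sum is weighted to the most abundant genes of its list, so a change in the scarcer ones could go unseen. Among single members the largest value with the heat shock and handling list was that of *Atf3*, r = -0.64 and -0.726 without the 4 libraries. For *Junb* alone r was 0.376 with the extraembryonic ectoderm list and 0.292 without the 4 libraries. None of these was tested.

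The first comparison asked whether loss of *Stat3* changed the set at each stage. In the counts modelled with edgeR, a gene was called at an absolute log2 fold change above 1 and a Benjamini-Hochberg adjusted p below 0.05. No member was called between *Stat3* null and WT epiblasts at any stage, by edgeR or by DESeq2. At E5.5 that was 0 of 10, against 0% of all 18690 genes tested, with 1 member at an unadjusted p below 0.05, against 2.5% of all genes. At E6.5 it was 0 of 10, against 0% of 17095 genes, and no member had an unadjusted p below 0.05, against 8.27% of genes. Groups overlapped for all members at this stage, and 0.0585% of genes had groups that did not. At E7.5 it was 0 of 10, against 1.17% of 19680 genes, with 1 member at an unadjusted p below 0.05, against 19.7% of genes. Since edgeR called no gene at E5.5 or E6.5, *Stat3* itself was not called there. Its exact permutation p at E6.5 was 0.000864, two-sided. The lack of member calls at these 2 stages therefore does not show that the set was unchanged.

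At E5.5 the null epiblasts lay below both WT epiblasts for *Jun* and *Jund*, 2 of 10 members whose groups did not overlap, against 11.7% of all genes. The log2 fold change was -0.99 ± 0.33 (SE) for *Jun*, with an adjusted p of 0.999 in edgeR's quasi-likelihood test. For *Jund* it was -0.87 ± 0.39, with an adjusted p of 0.999 in the same test. Neither difference held after adjustment, and the exact permutation test, two-sided, gave p = 0.0667 for *Jun* and 0.2 for *Jund*, where 0.0667 is the smallest that 4 against 2 allows. The lowest *Jund* value was that of E5.5 null 1, and without that library the log2 fold change was -0.63 for *Jund* and -0.94 for *Jun*. The 8 remaining members had log2 fold changes from -3.91 for *Fosb*, where 1 of the 2 WT epiblasts was high, to 2.72.

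At E6.5, the stage with most libraries, 7 of 10 members were higher in null by sign and 3 lower, a count that was not tested. Log2 fold changes ran from -1.43 for *Egr2* to 1.79 ± 1.03 for *Fosb*, with a median over all genes of -0.009. The largest shift relative to its error was that of *Jun*, at 0.91 ± 0.45 and an adjusted p of 0.630 in edgeR's quasi-likelihood test. Null values lay on both sides of the WT range: 2 null epiblasts were below all WT epiblasts and 3 above. Leaving out null 3 gave log2 fold changes of 0.56 for *Jun* and 1.08 for *Fosb*, and leaving out null 4 gave 0.63 and 1.19. Without the 4 E6.5 libraries whose visceral endoderm markers summed to over 3000 CPM (null 3, 4 and 8 and WT 3), a choice made after seeing the data, the log2 fold change was -0.03 ± 0.41 for *Jun* and -0.85 ± 1.104 for *Fosb*. Neither value exceeded its error. That choice took out null 3 and null 4, the highest epiblasts for both genes, so lower values were fixed in advance. Over the 35 epiblast libraries, deviations from the group mean had r = 0.264 for *Jun* and 0.0424 for *Fosb* with the visceral endoderm sum. Its part was not tested, and no member was called either way. Depth was mixed at this stage, with 3 null and 3 WT libraries over 40000000 counts. No member was called with depth as a term or within either depth group. *Jund* and *Ier2* differed by 0.06 ± 0.14 and -0.02 ± 0.13 on the log2 scale.

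At E7.5, 9 of 10 members were higher in null by sign, where the median log2 fold change over all genes was -0.02. Some members vary together and there are 3 null epiblasts, so these signs are not independent, and their count was not tested. *Ier2* had a log2 fold change of 0.36 ± 0.16 and an adjusted p of 0.209 in edgeR's quasi-likelihood test, with 62.96, 48.8 and 37.1 CPM in null against 31.1 to 50.02 in WT. The groups overlapped for all 10 members, against 4.19% of genes whose groups did not. *Egr2* was detected in all 3 null epiblasts, at 0.888 to 1.43 CPM, and had 0 counts in 6 of 9 WT epiblasts. Its exact permutation p was 0.0318, two-sided and unadjusted, the only value below 0.05 among the 40 such tests over 10 members and 4 comparisons. In edgeR its p was 0.257, and the counts are too few to place a level. The visceral endoderm markers differed here, summing to 40.8 to 247.6 CPM in null and 394 to 4108 in WT. The epiblast list summed to 4605 to 6323 CPM in null and 1126 to 6279 in WT, against 4849 to 7835 in E6.5 WT. No marker of either list was at 0 in every library of a group. Their part in these values was not tested. The study reports a developmental delay, with E6.5 null epiblasts between WT E5.5 and E6.5, and E7.5 null nearer to WT E6.5 than to E7.5. Genotype and delay cannot be told apart in the null against WT values of E6.5 and E7.5, for members or other genes.

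**Figure D4:**
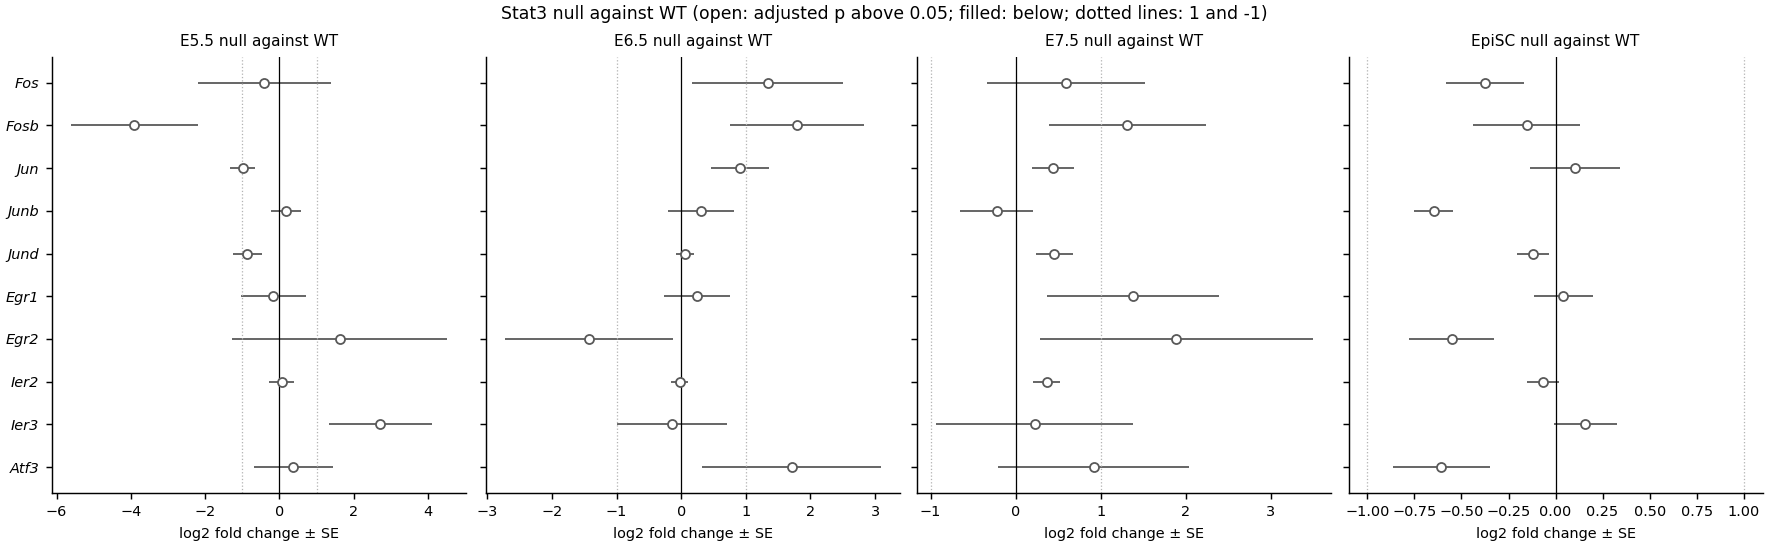
Log2 fold change of each member, *Stat3* null against WT, with its standard error, in epiblasts by stage and in EpiSCs; open points have an adjusted p above 0.05 and dotted lines stand at 1 and -1. All points are open, and the errors are widest for *Fos*, *Fosb*, *Egr2* and *Atf3* in the epiblasts.

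The stage comparisons asked how the set changed as the epiblast matured. Between E5.5 and E6.5 in WT, *Junb* fell, and it was the only member called: 1 of 10, against 5.15% of 20763 genes, of which 2.63% were called lower. Unadjusted p was below 0.05 for 3 members, against 23% of genes. From 32.0 and 13.7 CPM it went to a median of 4.32, a log2 fold change of -1.91 ± 0.53 with an adjusted p of 0.0379 in edgeR's quasi-likelihood test. The groups overlapped through E6.5 WT 3, at 18.4 CPM. Without that library the log2 fold change was -2.38 and the adjusted p 0.000371, and without E5.5 WT 1 they were -1.22 and 0.607. The call was also lost, at adjusted p values of 0.0582 to 0.0645, without any of 7 other E6.5 WT libraries (2 and 4 to 9).

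In the null epiblasts *Junb* differed by -1.81 ± 0.60 over the same step, with an adjusted p of 0.113 in edgeR's quasi-likelihood test, and it was called by DESeq2, with -1.83 and an adjusted p of 0.0414, and by edgeR without E6.5 null 1. The extraembryonic ectoderm list moved the same way in WT, summing to 378 and 802 CPM at E5.5 and to 109 to 455 at E6.5, and the visceral endoderm list summed to 5251 and 6495 CPM at E5.5 and to 47.8 to 5285 at E6.5, with the highest value in E6.5 WT 3. Each list had all 10 markers above 0 in some library of both stages. Their part in the *Junb* difference was not tested. *Prdx2*, which codes for a peroxiredoxin and whose exons overlap those of *Junb* on the other strand, moved the opposite way in WT, by 0.56 ± 0.15 with an adjusted p of 0.0339 in edgeR.

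*Egr1* lay higher at E6.5 than at E5.5 in WT without overlap, at 3.44 to 10.1 CPM against 1.73 and 2.61. Its log2 fold change was 1.72 ± 0.53 with an adjusted p of 0.0577 in edgeR's quasi-likelihood test. It was called by DESeq2 (1.67, adjusted p 0.00548) and without E6.5 WT 1 or WT 3. *Ier2* (0.42 ± 0.15, adjusted p 0.0955 in edgeR) and *Ier3* (2.43 ± 1.23, adjusted p 0.259 in edgeR) also did not overlap, so 3 of 10 members did not, against 17.1% of genes. *Jun* differed by -0.02 ± 0.33.

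In null epiblasts no member was called between E5.5 and E6.5, against 1.98% of 18352 genes, and 5 of 10 had an unadjusted p below 0.05, against 18.3% of genes. DESeq2 called 2, *Jun* and *Junb*. These were *Junb*, with the difference given above, and 4 that were higher at E6.5. *Jun* had a log2 fold change of 1.82 ± 0.71 and an adjusted p of 0.180 in edgeR's quasi-likelihood test, and *Jund* one of 0.67 ± 0.25 and 0.1503. *Egr1* differed by 2.07 ± 0.87 (adjusted p 0.211 in edgeR) and *Fosb* by 4.61 ± 1.76 (adjusted p 0.165 in edgeR), from E5.5 values of 0.925 CPM or less. In DESeq2 *Jun* had 1.82 with an adjusted p of 0.0491. *Jund* was the only member without overlap, with 23.5 to 65.4 CPM at E5.5 and 66.7 to 118.5 at E6.5, and 5.28% of genes had none. Without E5.5 null 1, the lowest library, its log2 fold change was 0.46 with an adjusted p of 0.193 in edgeR.

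From E6.5 to E7.5 in WT, with 9 libraries a stage, *Jun* rose and *Ier2* fell, both by less than the threshold of a call. *Jun* went from a median of 18.2 to 31.1 CPM, a log2 fold change of 0.75 ± 0.19 with an adjusted p of 0.00658 in edgeR's quasi-likelihood test, and was higher by 0.60 without E7.5 WT 2, its highest library. *Ier2* went from a median of 49.8 to 38.5 CPM (-0.40 ± 0.09, adjusted p 0.00274 in edgeR). *Jund* had -0.37 ± 0.14 and an adjusted p of 0.0648 in the same test. None of the 9 members tested was called by edgeR or DESeq2, against 8.83% of 17191 genes, while 2 had an adjusted p below 0.05, against 24.9% of genes, and 3 an unadjusted p below 0.05, against 36.1% of genes. Neither of these shares of the members exceeded that of all genes. The stages overlapped for every member tested, and 2.41% of genes had none. *Egr2* was too low to be tested. Markers changed over this step, with 8 of 10 epiblast markers called lower (list median -1.71) and 4 streak and 3 visceral endoderm markers called higher, and their part in the *Jun* and *Ier2* values was not tested.

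In null epiblasts no member was called by either tool between E6.5 and E7.5, against 0.103% of 19460 genes, and none had an unadjusted p below 0.05, against 8.13% of genes. Stages overlapped for all 10, and 5.95% of genes had no overlap. *Jun* differed by 0.27 ± 0.73 and *Egr1* by 1.33 ± 0.86 on the log2 scale. The WT and null steps were compared with an interaction term. No member was called by either tool for E7.5 against E6.5 (0.443% of 22122 genes were, and no member had an unadjusted p below 0.05, against 14.1% of genes) or for E6.5 against E5.5 (0.0132% of 22731 genes). In the latter, *Fosb*, *Jun* and *Jund* had unadjusted p values of 0.0158, 0.0341 and 0.0145, against 4.45% of genes below 0.05, with adjusted p values of 0.9999 in edgeR, so a difference between the WT and null steps was not shown.

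**Figure D5:**
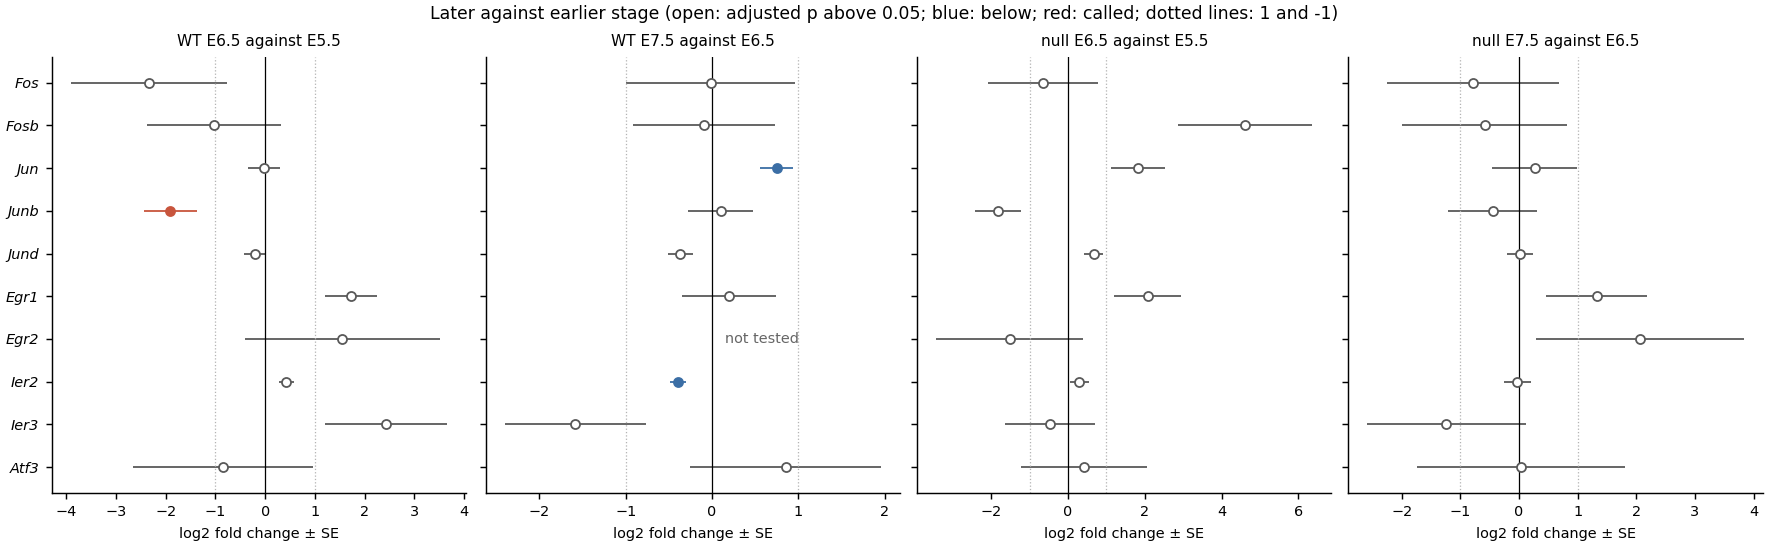
Log2 fold change of each member between consecutive stages, with its standard error, in WT and in *Stat3* null epiblasts; the red point is the called gene, blue points have an adjusted p below 0.05, and dotted lines stand at 1 and -1. *Junb* lies near -1.9 in WT and -1.8 in null from E5.5 to E6.5, and *Jun* and *Ier2* are the blue points from E6.5 to E7.5 in WT.

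In the EpiSC lines the order of the set differed from that of the epiblasts. *Egr1* was at 462 and 361 CPM in null lines 2 and 6 and at 442.5 and 357 in WT lines 8 and 13, the order kept for the values that follow, where no epiblast exceeded 40.2, and it held rank 1 per length in both EpiSC groups. *Atf3*, at 15.3 and 17.4 CPM in null and 31.2 and 18.7 in WT, *Ier2*, at 93.8 and 87.3 against 99.7 and 89.8, and *Egr2*, at 3.27 and 4.13 against 5.98 and 4.90, were also above every epiblast. *Jund*, at 58.1 and 65.6 CPM in null and 67.6 and 66.95 in WT, and *Fos*, at 9.26 to 15.6 CPM, stayed within the epiblast range. Kit, table and culture differ together between EpiSCs and epiblasts, so their parts cannot be told apart and no test was made.

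Between null and WT EpiSC lines no member was called by edgeR or DESeq2, against 0.106% of 20736 genes by edgeR, and 2 of 10 had an unadjusted p below 0.05, against 9.09% of genes. *Junb* was at 32.9 and 31.2 CPM in the null lines and at 46.3 and 54.0 in the WT lines, with both null lines below both WT lines. Its log2 fold change was -0.65 ± 0.10, with an adjusted p of 0.112 in edgeR's quasi-likelihood test. With DESeq2 the adjusted p was 0.000121 at a log2 fold change of -0.65, and without the filter on low counts it was 0.0266 in edgeR. *Egr2* had -0.55 ± 0.23 and an adjusted p of 0.543 in edgeR.

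Lines did not overlap for 5 of the 10 members, *Junb*, *Jund*, *Egr2*, *Ier3* and *Atf3*, against 39.3% of all genes. The log2 fold changes were -0.12 ± 0.09 for *Jund*, 0.16 ± 0.17 for *Ier3* and -0.61 ± 0.26 for *Atf3*, with adjusted p values of 0.788, 0.873 and 0.595 in edgeR. *Atf3* turned on the WT lines, with -0.19 without line 8 and -0.93, at an adjusted p of 0.0489, without line 13. With 2 lines a genotype the exact permutation test cannot go below 0.333. *Prdx2* differed by 0.06 ± 0.09 between the lines. Visceral endoderm markers summed to 7.86 CPM or less in every line. The nascent mesoderm and streak markers summed to 56.1 and 61.1 CPM in the null lines against 110.8 and 98.1 in the WT lines, and 4 of the 7 tested were lower in null at an unadjusted p below 0.05. Their part in the *Junb*, *Egr2* and *Atf3* values was not tested.

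The wider list of 30 immediate early genes, which holds no member, had 1 call between genotypes: *Dusp1*, an immediate early phosphatase of MAP kinases, was higher in E7.5 null (1.03 ± 0.25, adjusted p 0.0483 in edgeR). Its median log2 fold change was 0.05 at E7.5, against -0.02 over all genes. At that stage 5 of 29 were higher and 6 lower at an unadjusted p below 0.05, against 19.7% of all genes in either direction. At E5.5 0 of 27 were called, with 2 higher and 1 lower at an unadjusted p below 0.05 (2.5% of genes). At E6.5 0 of 26 were called, with 7 higher and 0 lower at that p (8.27% of genes), and in EpiSCs 0 of 30, with 1 higher and 9 lower (9.09% of genes). The largest differences were those of *Btg2* (-1.84 ± 0.87) and *Fosl1* (-1.57 ± 0.65) at E5.5, *Gadd45b* (2.74 ± 1.104) and *Fosl2* (1.63 ± 0.71) at E6.5, *Arc* (1.55 ± 0.51) and *Nr4a3* (-1.54 ± 1.48) at E7.5, and *Egr3* (-1.40 ± 0.19) and *Arc* (-1.20 ± 0.61) in EpiSCs. In E6.5 null *Gadd45b* had a median of 1.35 CPM and a highest value of 23.96, against a WT median of 0.831. *Fosl2* had a median of 3.68 and a highest value of 56.2, against a WT median of 2.24. Both differences were thus carried by the upper end of the null group. For *Egr3* in EpiSCs the adjusted p was 0.0831 in edgeR's quasi-likelihood test.

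Between E5.5 and E6.5 in WT, 5 of the 30 fell and none rose by the call, against 5.15% of all genes called and 2.63% called lower, with a list median of -0.18 against 0.10 over all genes. They were the FOS relatives *Fosl1* (-2.83 ± 0.52) and *Fosl2* (-2.40 ± 0.64), *Klf6* (-1.003 ± 0.25), *Csrnp1* (-1.02 ± 0.22) and *Nfkbiz* (-1.90 ± 0.37), named after their values were seen. Over the same step the visceral and extraembryonic markers given beside *Junb* had median log2 fold changes of -2.32 and -3.28, and their part in these values was not tested. Between E6.5 and E7.5 in WT 2 of 28 rose and 4 fell, against 8.83% of all genes called. In null none was called at either step, against 1.98% of all genes from E5.5 to E6.5 and 0.103% from E6.5 to E7.5.

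Few genes upstream and downstream of the set were called between genotypes. Of all genes, 0% were called at E5.5 and E6.5, 1.17% at E7.5 and 0.106% in EpiSCs. Of 18 upstream regulators, among them the kinases and serum response factor partners, none was called at E5.5, E6.5 or E7.5 or in EpiSCs, and the largest difference with an adjusted p below 0.05 was a lower *Rps6ka3*, an ERK-activated kinase, in E7.5 null (-0.83 ± 0.19, adjusted p 0.0428 in edgeR). Of 15 AP-1 partners and EGR co-repressors none was called between genotypes. *Nab2*, which codes for an EGR co-repressor, had -0.82 ± 0.11 and an adjusted p of 0.0739 in edgeR in EpiSCs. Of 10 ERK feedback genes only *Dusp6*, an ERK phosphatase, was called, higher in E7.5 null (1.20 ± 0.27, adjusted p 0.0442 in edgeR). By the interaction term for E7.5 against E6.5, 4 of those 10 and 1 of the 18 upstream regulators were called, against 0.443% of all genes. At E6.5, 7 of those 10 were lower at an unadjusted p below 0.05, against 8.27% of all genes in either direction, with *Spry2* at -0.72 ± 0.17 and an adjusted p of 0.334 in edgeR. Of 15 heat shock and handling genes none was called between genotypes in epiblasts or EpiSCs.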

How the data were processed

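Single-epiblast and EpiSC RNA-seq libraries were analysed from 2 tables of gene counts that the authors deposited. Per the labels and the study's methods, reads were trimmed with Trim Galore, aligned to GRCm38/mm10 with HISAT2 and counted per gene with StringTie. Whether counting used strand is not given in the sources used here. Epiblast libraries were made with a stranded total RNA kit for low input, and EpiSC libraries from rRNA-depleted RNA with another kit, so the tables were normalised and tested separately.

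Counts were scaled by TMM, filtered with filterByExpr (minimum count 10, minimum total 15) and tested with edgeR 4.0.16's quasi-likelihood test in R 4.3.3, with only the groups compared in each fit and p-values adjusted by Benjamini-Hochberg across every gene in the fit. The procedure was checked on simulated counts for E6.5 and E7.5 null against WT and for WT E6.5 against E5.5. The other comparisons were not simulated, and every simulated gene had the same relative spread. That spread was smaller than the biological coefficient of variation of every member except *Jund* and *Ier2*. The check therefore does not show the power to detect changes in the other members. Single members were also compared by two-sided exact permutation tests of log2 CPM (prior count 2). The CPM that a count of 0 allows covers counting error only. Gene models came from GENCODE for mm10, where 47224 of 47643 IDs matched, and lengths are unions of exons.

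The members, gene lists and tests were chosen with earlier results of these data known. All 10 members were described, with fold changes for those called, not overlapping between groups or at an unadjusted p below 0.05, and for a few others and for *Prdx2*, chosen after their values or annotation were seen. Genes of other lists were named if called between genotypes or among the 2 largest differences, and otherwise as picked after their values were seen. Alternatives were DESeq2 1.42.0, other size factors, other filters, a replicate block, depth terms, a fit of all 35 epiblast libraries and leaving out each replicate. Some of the genes most like the members are not reported here.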

Additional observations from a re-analysis of the deposited data

Results flagged for a closer look

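Among 40 groups of 4 to 10 libraries, 1 for each member and group of that size, 3 held a library whose distance from its nearest neighbour passed Dixon's 95% limit, where chance gives about 1 in 20. *Jun* in E7.5 WT 2 was at 63.9 CPM, the next library of that group being at 39.25. *Junb* in E6.5 WT 3 was at 18.4 CPM, the next being at 6.13, and this library had the highest visceral endoderm sum of its group. *Jund* in E5.5 null 1 was low, at 23.5 CPM, the next being at 54.9, and this library had the lowest *Pou5f1* of all epiblasts. None of the 20 tests of a difference between the WT and null stage steps passed for a member.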

How the results depend on the processing

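No member was called between *Stat3* null and WT in epiblasts or EpiSCs under any alternative that was run. At E6.5 *Jun* and *Fosb* went to -0.03 and -0.85, both within their errors, without the 4 libraries high in visceral endoderm markers. Those libraries include the highest epiblasts for both genes. The WT step from E5.5 to E6.5, with 1 member called, gave 2 with DESeq2, 0 with a replicate block, 0 with all 35 epiblast libraries in 1 fit and 2 without the 4 libraries that stood apart (an alternative added after seeing the data), and 0 to 2 when each replicate was left out. The null step, with 0 called, gave 2 with DESeq2, 2 with all 35 libraries in 1 fit, 1 without the 4 libraries, and 0 to 1 when each replicate was left out. *Junb* in the WT step ranged from -2.77 to -1.22 (adjusted p 0.000371 to 0.607 in edgeR or DESeq2 over 19 alternatives) and lost its call in 10. Deviations of same-numbered libraries had r from -0.224 to 0.386. Differently numbered libraries were not compared in this way, so a pairing by number was neither shown nor excluded. With the replicate block the WT *Junb* value was -2.77 with an adjusted p of 0.205 in edgeR, and the interaction of *Jun* from E5.5 to E6.5 turned from 1.88 to -0.24. The cause was not tested. *Jun* and *Ier2* from E6.5 to E7.5 in WT kept their direction in 26 alternatives, with adjusted p up to 0.161 and 0.0590 in edgeR with all 35 libraries in 1 fit.

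DESeq2 called more genes in all than edgeR in every comparison, 31 against 0 at E5.5, 37 against 0 at E6.5, 1038 against 231 at E7.5 and 214 against 22 in EpiSCs. For the steps it was 2059 against 1070 and 2329 against 1518 in WT, and 1176 against 363 and 326 against 20 in null, and for the interactions 633 against 98 and 64 against 3. Low counts limit *Egr2*, *Atf3*, *Ier3*, *Fos* and *Fosb*, and E5.5 has only 2 WT epiblasts.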
